A study of Mus musculus with 6 samples.

Results

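The semaphorin, plexin, ephrin, Eph, Slit, Robo, netrin and Unc5 families encode guidance cues and their receptors. They were taken from the deposited gene table as protein-coding genes whose symbols begin with the family name, with Nrp1, Nrp2 and the named Slit, Robo and netrin genes added. This gave 69 of 37309 rows, for 68 symbols, since Efna5 has a second row with no reads. Of these rows 56 passed a filter of at least 10 normalised reads in at least 3 libraries, 13 did not, and 2 of the 13 had no read in any library. The symbol rule also took in Unc50 and Unc5cl, which are not netrin receptors and are left out of the family counts. Both stay in the counts over all 69 rows, so the 56 tested rows, called the tested guidance genes below, include Unc50.

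RNA was sequenced from ImSMC, smooth muscle cells of the descending aorta of the immorto mouse, whose cells carry a conditional SV40 large T antigen that keeps them dividing in culture. All 6 libraries shared this origin, and the labels give neither the age of the animals nor how many animals or cultures were used, so p-values measure the spread between these libraries, which may be technical. The vehicle group (3 libraries) received DMSO and the treated group (3 libraries) received 50 uM DAPT, both for 3 days. DAPT inhibits gamma-secretase, the membrane protease that frees the intracellular part of Notch receptors and also cuts other membrane proteins, ephrin-B proteins and several Eph receptors among them.

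Guidance cues were first described as signals that attract or repel growing axons, and the same proteins steer endothelial, mural and immune cells. Secreted class 3 semaphorins act through neuropilin and plexin complexes, and membrane-bound semaphorins mostly bind plexins directly. Ephrins and Eph receptors both sit in cell membranes and signal in both directions at cell contacts, and in the vessel wall ephrin-B2 marks arteries and EphB4 veins. Slits signal through Robo receptors, and netrins through Dcc, neogenin and Unc5 receptors.

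The libraries held between 10702548 and 14503665 reads. The smooth muscle label was set beside the levels of 8 markers, which do not settle it. Acta2 was at 520.3 ± 50.8 in vehicle and 252 ± 26.3 under DAPT (mean ± SD of normalised reads, n = 3) and Tagln at 925 ± 60.6 in vehicle and 495 ± 36.1 under DAPT, and both were called lower. Smtn was at 1078 ± 17.0 in vehicle and 1069 ± 33.9 under DAPT and did not pass, Cnn1, Myh11, Lmod1 and Des had group means under 50, and Myocd, the smooth muscle coactivator, was near 0. The summed level of the 8 ranged over 2538 to 2733 in vehicle and 1826 to 2021 under DAPT. The endothelial markers Pecam1, Cdh5, Tie1 and Emcn and the leukocyte marker Ptprc had group means of at most 2.66, but other markers on the same lists were expressed. Of the endothelial list the VEGF receptor Kdr was at 541 ± 18.1 in vehicle and 529 ± 14.2 under DAPT and Tek at 41.4 ± 14.0 in vehicle and 48.1 ± 2.20 under DAPT. Of the leukocyte list Cd14 was at 209 ± 2.62 in vehicle and 208 ± 9.81 under DAPT, Csf1r at 175 ± 18.2 in vehicle and 189.7 ± 9.15 under DAPT and Cd68 at 178 ± 12.0 in vehicle and 218 ± 2.53 under DAPT. Of 4 tested endothelial and 3 tested Schwann and neural markers 0 were called, and of 3 tested leukocyte markers 1 was called higher, Cd68. Markers of other cell types moved between the groups. Of 8 mesothelial markers 6 were tested, 5 were called lower and 0 higher. The summed level of the 8 ranged over 3475 to 3553 normalised reads in vehicle and 1921 to 2064 under DAPT. Upk3b was at 1350 ± 51.4 in vehicle and 671 ± 40.5 under DAPT, and Lrrn4 at 675 ± 88.4 in vehicle and 240 ± 4.02 under DAPT. Vehicle means were 585 for Upk1b, 366 for Krt19, which was not called, 303 for Msln and 234 for Wt1. Krt18 was at 3.85 and Krt8 at 0 in vehicle. Of 8 adventitial fibroblast markers 6 were called lower and 1 higher, with summed levels of 23264 to 25719.7 in vehicle and 22935 to 24139.6 under DAPT. Beside these marker counts, 18.1% of all tested genes were called. The part of these cell types in the changes below was not tested, and in bulk RNA fewer cells of a type cannot be told apart from less RNA per cell.

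Under DAPT 15 of the 56 tested guidance genes fell and 3 rose, while 38 did not pass an adjusted p of 0.05 (limma on log2 of the normalised read count plus 1, Benjamini-Hochberg over 14906 genes). The 38 include Unc50. The genes that fell most were Plxna4, a receptor subunit for Sema3A, Epha1, an Eph receptor, and Slit3, a secreted Slit, and Ntn1 (netrin-1), Robo3 and Unc5c rose. Over all tested genes 18.1% were called, 8.91% lower and 9.22% higher, against 32.1% of the tested guidance genes. No family was tested as a set, and the family counts below stand beside this 18.1%. The median log2 change was -0.10 over the tested guidance genes and 0.0009 over all genes. In all 18 called genes the 3 DAPT values lay apart from the 3 vehicle values, which adds no support of its own, since the calls rest on the same values. The groups lay apart in 25 of the 56 tested guidance genes and in 33.3% of all tested genes. Of the 25, 18 were lower under DAPT, a direction taken without overlap by 16.4% of all tested genes. Ligands (semaphorins, ephrins, Slits and netrins) gave 8 lower and 1 higher call among 30 tested (median log2 change -0.14), and receptors 7 lower and 2 higher among 25 (median -0.01). Of the 15 that fell, 3 did so by at least 1.5-fold. DESeq2 on the 5 libraries with recovered reads called 982 genes in all and 8 of the 56, 7 lower and 1 higher, and without DAPT replicate 1 the genes called higher by limma numbered 1, Ntn1. Of 67 guidance genes with a value in the authors' deposited table, 11 had an adjusted p below 0.05, 10 lower and 1 higher under DAPT, against 6.19% of all genes there, and all 11 were also called here.

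**Figure D1:**
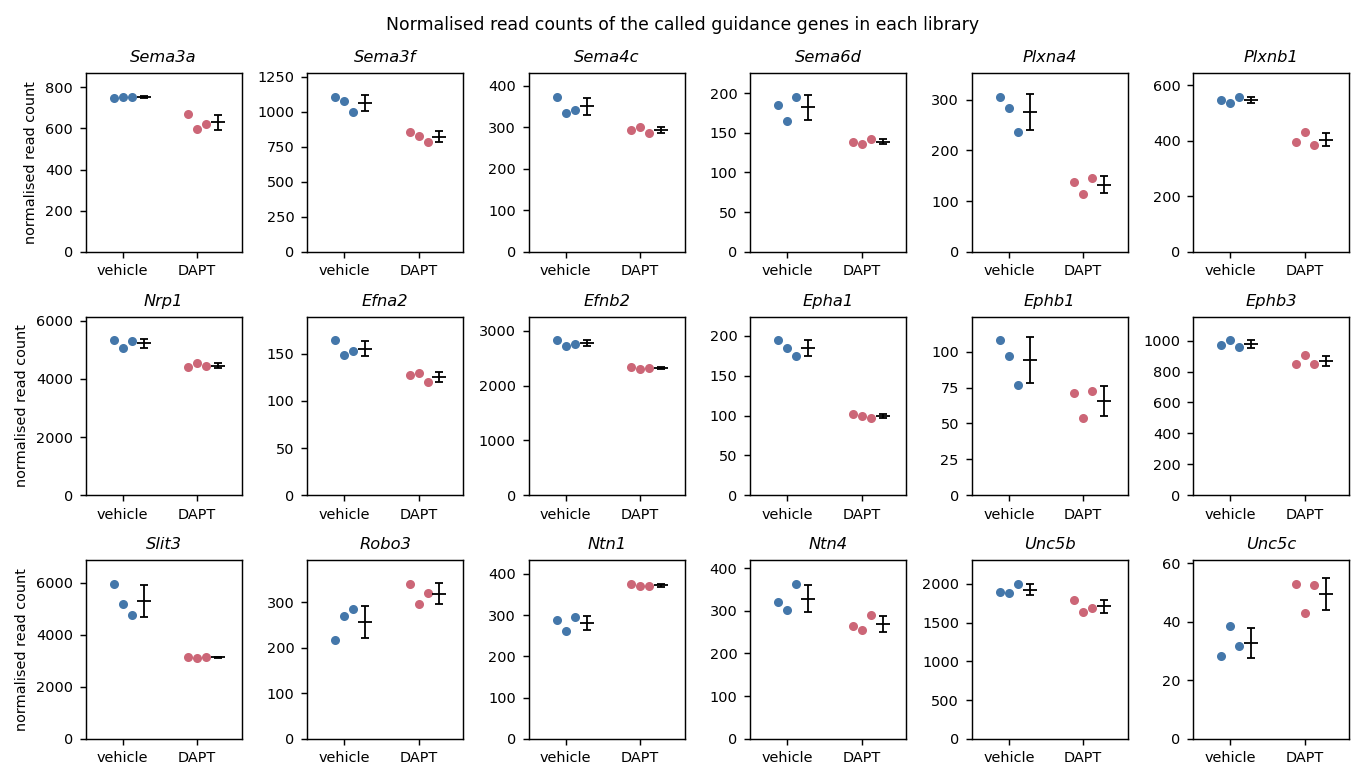
Normalised read counts (y axes, from 0) of the 18 called guidance genes in each of the 3 vehicle (blue) and 3 DAPT (red) libraries, with the group mean and SD as black bars. The groups do not overlap in any panel, and the widest gaps relative to the level are those of Plxna4, Epha1 and Slit3.

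The class 3 semaphorins are secreted, and all 7 were tested, of which 2 fell and 0 rose (median log2 change -0.12). That is 28.6% called, against 18.1% of all tested genes. Sema3f, a ligand that acts mainly through neuropilin-2 (chromosome 9, ENSMUSG00000034684), was at 1109, 1077 and 998 in vehicle and 859, 825 and 782 under DAPT. Every vehicle library was above every DAPT library, and the group mean fell by 22.6% (log2 change -0.37, SE 0.0488, limma adjusted p = 4.60e-06). Sema3a, the founding axon repellent of the class (chromosome 5, ENSMUSG00000028883), was at 747, 755 and 752 in vehicle and 670.0, 598 and 623 under DAPT, with the vehicle libraries close together and the DAPT libraries lower and wider apart (log2 change -0.25, SE 0.0507, limma adjusted p = 0.000735). The 2 members with most reads per kb did not pass the threshold. Sema3c, a cue of outflow tract development, was at 3778, 3658 and 3567 in vehicle and 3737, 3860.5 and 3893 under DAPT, with overlapping groups (adjusted p = 0.231). Sema3e, which can bind plexin-D1 without a neuropilin, was at 3315, 3208 and 3213 in vehicle and 3182, 3305 and 3207 under DAPT (95% interval of the log2 change -0.08 to 0.06, limma adjusted p = 0.934). Sema3a, Sema3c and Sema3e all lie on chromosome 5, as does Sema3d (limma adjusted p = 0.0765). Within a library the ratio of Sema3c to Sema3f reads per kb was 1.13 ± 0.0326 in vehicle and 1.53 ± 0.102 under DAPT.

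Among the membrane-bound semaphorins 10 were tested, 2 fell and 0 rose, a share near the 18.1% called over all tested genes. Sema4c, a ligand of plexin-B2, was at 374, 335 and 342 in vehicle and 294, 301 and 287 under DAPT (log2 change -0.25, SE 0.0673, limma adjusted p = 0.00997), and all DAPT libraries were lower. Its call did not hold on removal of vehicle replicate 1 (0.0638), and its adjusted p over the alternatives ran from 0.00956 to 0.259. Sema6d, a transmembrane ligand of plexin-A1, was at 185, 165 and 196 in vehicle and 138, 136 and 143 under DAPT, again with no overlap (log2 change -0.38, SE 0.0941, limma adjusted p = 0.00510). The most abundant class 4 member, Sema4b, was at 549, 528 and 500.3 in vehicle and 540.2, 491 and 514 under DAPT, with mixed libraries (adjusted p = 0.780). Sema5a, a membrane semaphorin with thrombospondin-type repeats, was at 815, 722 and 774 in vehicle and 875, 823 and 820.1 under DAPT. Its DAPT libraries were all above its vehicle libraries, but it did not pass (adjusted p = 0.0908) except without vehicle replicate 1 (0.0287, with a range of 0.0287 to 0.426 over the alternatives). Sema6b was at 63.0, 56.4 and 60.2 in vehicle and 67.3, 68.4 and 78.2 under DAPT, also higher in each DAPT library and not past the threshold (adjusted p = 0.249). Sema4d, the ligand of plexin-B1, was near the filter, at 13.2, 10.8 and 6.20 in vehicle and 10.4, 2.10 and 3.96 under DAPT, with a log2 change of -0.92 and a wide 95% interval (-1.87 to 0.02).

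Of the neuropilins, the co-receptors of class 3 semaphorins, Nrp1 fell and Nrp2 did not pass. Nrp1, which also binds VEGF (chromosome 8, ENSMUSG00000025810), was at 5334, 5044 and 5299.6 in vehicle and 4394, 4544 and 4426 under DAPT. The lowest vehicle library stood above the highest DAPT library, and the mean fell by 14.8% (log2 change -0.23, SE 0.0336, limma adjusted p = 1.73e-05). Nrp2 was at 137, 133 and 146 in vehicle and 145, 158 and 175 under DAPT, with DAPT replicate 1 inside the vehicle range (log2 change 0.19, SE 0.0985, limma adjusted p = 0.190). The ratio of Nrp1 to Nrp2 reads per kb was 61.9 ± 2.13 in vehicle and 46.2 ± 4.27 under DAPT.

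Among 8 tested plexins 2 fell and 0 rose (25.0% called, against 18.1% of all tested genes), with a median log2 change of -0.03. Plxna4 (chromosome 6, ENSMUSG00000029765), which pairs with neuropilin-1 as a Sema3A receptor, was at 307, 283 and 236 in vehicle and 137, 114 and 146 under DAPT. Its level was 2.07-fold lower under DAPT (log2 change -1.05, SE 0.103, limma adjusted p = 4.19e-08), the largest fall among the tested guidance genes. Plxnb1, the Sema4D receptor that activates RhoA (chromosome 9, ENSMUSG00000053646), was at 546, 537 and 559.6 in vehicle and 394, 430.3 and 385 under DAPT, and the mean fell by 26.3% with narrow groups (log2 change -0.44, SE 0.0580, limma adjusted p = 4.03e-06). The 2 plexins with most reads per kb did not pass. Plxnb2, the receptor of Sema4C, was at 11642, 11488 and 11038 in vehicle and 11371, 11206 and 11319.5 under DAPT, overlapping throughout (95% interval of the log2 change -0.08 to 0.05, limma adjusted p = 0.860), and Plxna1, a partner of both neuropilins, was at 5014, 4763 and 4567 in vehicle and 4638, 4613 and 4575 under DAPT (interval -0.13 to 0.02, limma adjusted p = 0.350). The ratio of Plxna1 to Plxna4 reads per kb was 28.9 ± 2.64 in vehicle and 58.2 ± 7.88 under DAPT, with no overlap between the groups.

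**Figure D2:**
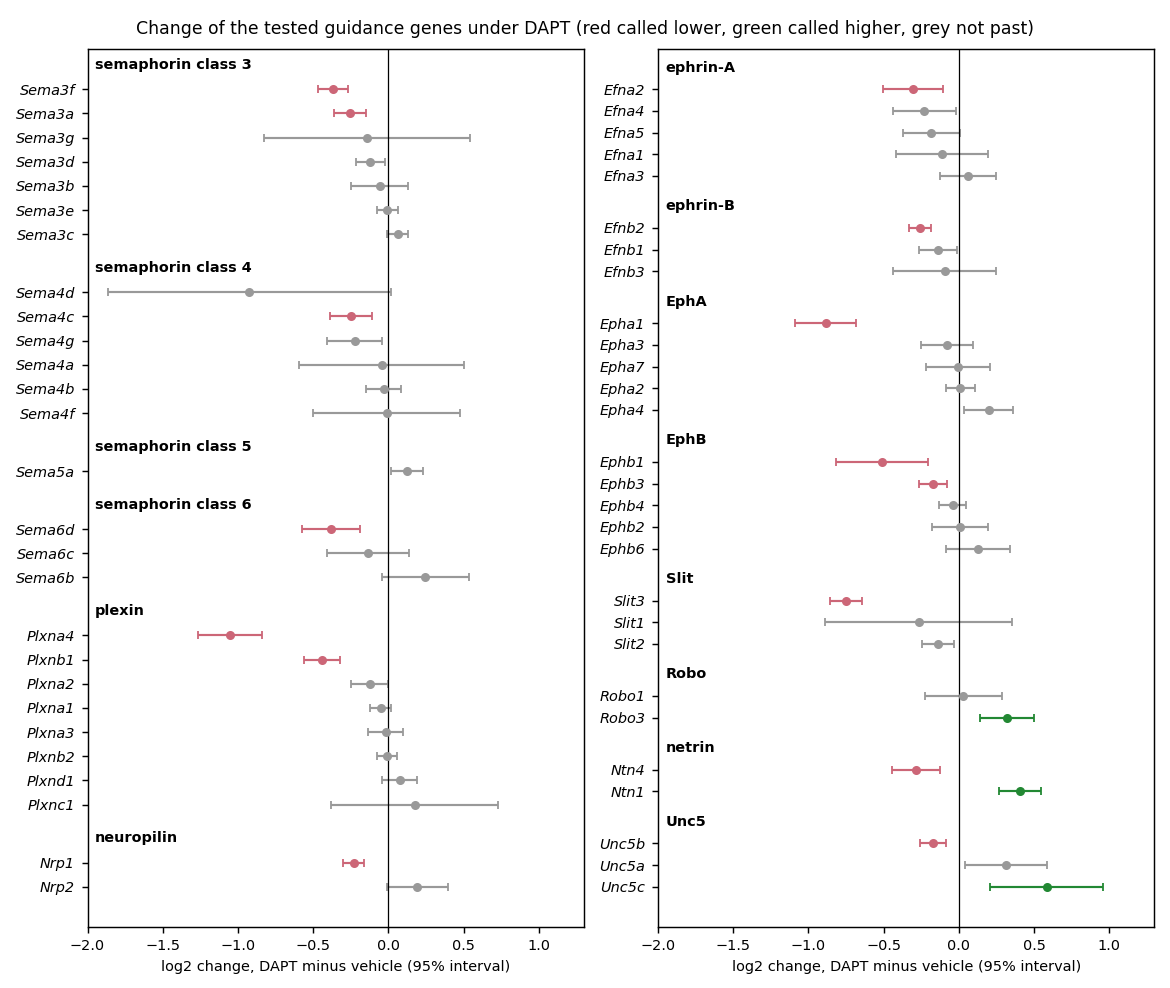
Log2 change, DAPT minus vehicle, of the tested genes of each family (points, x axis) with 95% intervals from limma, red for genes called lower, green for higher and grey for those not past the threshold. Plxna4, Epha1 and Slit3 lie farthest to the left among the called genes, while Plxnb2, Sema3e and Epha2 sit near 0 with narrow intervals and Sema4d has the widest interval.

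Ephrins are the membrane ligands of Eph receptors, and 2 of 8 tested fell and 0 rose (median log2 change -0.16). That is 25.0% called, against 18.1% of all tested genes. Efnb2 (ephrin-B2), a marker of arterial endothelium and smooth muscle (chromosome 8, ENSMUSG00000001300), was at 2830.2, 2722 and 2765 in vehicle and 2337, 2294 and 2315 under DAPT. Both groups were tight and well apart, and the mean fell by 16.5% (log2 change -0.26, SE 0.0345, limma adjusted p = 4.65e-06). Efnb1 (ephrin-B1) was at 483, 508 and 542 in vehicle and 435, 497 and 459.6 under DAPT, where DAPT replicate 2 lay inside the vehicle range (log2 change -0.14, SE 0.0613, limma adjusted p = 0.123). Efna2, one of the ephrins anchored to the membrane by lipid, was at 165, 149 and 153 in vehicle and 128, 129 and 119.9 under DAPT, with all DAPT libraries lower (log2 change -0.30, SE 0.0969, limma adjusted p = 0.0300). Its call did not hold on removal of vehicle replicate 1 (0.114), DAPT replicate 1 (0.0602), DAPT replicate 2 (0.0558) and DAPT replicate 3 (0.110), each alone, or under edgeR with 5 libraries (0.101), with a range of 0.0272 to 0.442 over the alternatives. Efna4, the ephrin-A gene with most reads per kb, was at 137, 151 and 158 in vehicle and 126, 117 and 138 under DAPT (adjusted p = 0.130) and Efna3 at 166, 166 and 176 in vehicle and 164, 189 and 176 under DAPT (adjusted p = 0.719), and in both the groups overlapped.

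Among 10 tested Eph receptors, which are receptor tyrosine kinases, 3 fell and 0 rose (median log2 change -0.02). That is 30.0% called, against 18.1% of all tested genes. Epha1, a receptor that prefers ephrin-A1 (chromosome 6, ENSMUSG00000029859), was at 195, 185 and 174 in vehicle and 102, 98.9 and 97.1 under DAPT. The highest DAPT library was far below the lowest vehicle library, and the mean fell by 46.2% (log2 change -0.89, SE 0.0979, limma adjusted p = 2.88e-07). In the GENCODE M21 annotation 6.97% of the exonic bases of Epha1 overlap exons of Zyx, the gene of the adhesion protein zyxin, on the other strand. Zyx itself fell from 7181 ± 309 to 4656 ± 173 (limma adjusted p = 5.61e-12), and whether reads were counted by strand is not stated in the labels, so its part in the Epha1 value was not tested. Opposite-strand exons also cover 0.854% of the exonic bases of Plxna4, 2.97% of Plxnb1, 2.34% of Ephb1, 1.22% of Unc5c, 0.851% of Unc5a, 10.7% of Plxna1, 14.6% of Efna3 and 10.51% of Efna4.

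Ephb3, a receptor of ephrin-B ligands, was at 973, 1004 and 956 in vehicle and 846, 907 and 849.9 under DAPT, and the mean fell by 11.3% with no overlap (log2 change -0.17, SE 0.0452, limma adjusted p = 0.00827). Ephb1 was at 108, 97.3 and 77.0 in vehicle and 71.1, 53.7 and 72.3 under DAPT, with a wide spread in both groups (log2 change -0.51, SE 0.149, limma adjusted p = 0.0174). The Ephb1 call did not hold on removal of vehicle replicate 1 (0.0933), vehicle replicate 2 (0.0637) and DAPT replicate 2 (0.124), with a range of 0.00381 to 0.127 over the alternatives. Ephb4, the venous partner of ephrin-B2 and the EphB gene with most reads per kb, was at 1018, 1003 and 950.1 in vehicle and 964, 979.6 and 945 under DAPT, with overlapping groups (95% interval of the log2 change -0.13 to 0.05, limma adjusted p = 0.597). Epha2, the most abundant Eph receptor per length, was at 1014, 998 and 1082 in vehicle and 1078, 981 and 1054 under DAPT (interval -0.09 to 0.11, limma adjusted p = 0.933), and Epha3 was at 331, 297 and 265 in vehicle and 271, 261 and 312 under DAPT (adjusted p = 0.585). Neither Epha2 nor Epha3 separated the groups.

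Of the 3 Slits, secreted ligands of Robo receptors, 1 fell and 0 rose (median log2 change -0.27). Slit3 (chromosome 11, ENSMUSG00000056427) was at 5972, 5179 and 4775 in vehicle and 3139.5, 3126 and 3164 under DAPT. The vehicle libraries were spread widely, the DAPT libraries were close together below all of them, and the level was 1.68-fold lower under DAPT (log2 change -0.75, SE 0.0503, limma adjusted p = 6.02e-11). The Slit3 adjusted p ranged from 1.09e-14 to 0.00138 over the alternatives, and the highest was from limma with robust empirical Bayes. Slit2 was at 1181, 1005 and 1086 in vehicle and 1021, 939.6 and 1008 under DAPT, a smaller difference with overlap (log2 change -0.14, SE 0.0517, limma adjusted p = 0.0667). It passed without vehicle replicate 2 (0.0138), with a range of 0.0138 to 0.326 over the alternatives. Slit3 had more reads per kb than Slit2 in each library, by a ratio of 16.8 ± 1.41 in vehicle and 10.98 ± 0.451 under DAPT. The size of this ratio rests in part on the deposited lengths, 6391 bases for Slit3 and 22057 for Slit2. Mean normalised reads in vehicle were 5309 for Slit3 and 1091 for Slit2. Slit1 was near the filter, with group means of 16.1 and 12.9 (adjusted p = 0.611).

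Of the Robo receptors 2 were tested, and 1 rose. Robo3, which in mammals steers axons across the midline and binds Slits weakly, was at 216, 269 and 285 in vehicle and 341, 297 and 319.9 under DAPT, and each DAPT library exceeded each vehicle library (log2 change 0.32, SE 0.0871, limma adjusted p = 0.0109). Its call did not hold on removal of vehicle replicate 1 (0.0848) and DAPT replicate 1 (0.0823), with a range of 0.00184 to 0.165 over the alternatives. Robo1, the widely expressed Slit receptor, was at 78.1, 86.5 and 96.5 in vehicle and 91.9, 89.4 and 84.2 under DAPT, with the groups intermixed (log2 change 0.03, SE 0.124, limma adjusted p = 0.913). Robo2 and Robo4, the latter known from endothelium, had 14 recovered reads each over all 6 libraries and were not tested.

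The pair of netrins in the set were called in opposite directions, and the difference between their changes was not tested. Ntn1, the diffusible netrin (chromosome 11, ENSMUSG00000020902), was at 288, 262 and 294 in vehicle and 376, 369 and 371 under DAPT. All DAPT libraries were above the vehicle libraries and close together, and the level rose 1.32-fold (log2 change 0.41, SE 0.0670, limma adjusted p = 8.76e-05). Ntn4, a netrin of basement membranes that binds laminin, was at 319.8, 303 and 364 in vehicle and 263, 255 and 290.2 under DAPT, lower in all DAPT libraries (log2 change -0.28, SE 0.0771, limma adjusted p = 0.0108). The Ntn4 call did not hold on removal of vehicle replicate 3 (0.0740) and DAPT replicate 2 (0.0722), with a range of 0.00485 to 0.0740 over the alternatives. The ratio of Ntn1 to Ntn4 reads per kb was 0.515 ± 0.0280 in vehicle and 0.833 ± 0.0557 under DAPT, without overlap.

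Of 3 tested Unc5 netrin receptors 1 fell and 1 rose. Unc5b, the form known from vessels (chromosome 10, ENSMUSG00000020099), was at 1899, 1878 and 2005 in vehicle and 1799, 1637 and 1692 under DAPT, and the mean fell by 11.3% (log2 change -0.17, SE 0.0411, limma adjusted p = 0.00371). Unc5c was at 28.2, 38.4 and 31.9 in vehicle and 53.1, 43.1 and 52.5 under DAPT, and each DAPT library was higher (log2 change 0.58, SE 0.182, limma adjusted p = 0.0265). The Unc5c call did not hold on removal of vehicle replicate 1 (0.0978), vehicle replicate 3 (0.0530), DAPT replicate 1 (0.104) and DAPT replicate 3 (0.0992), each alone, with no filter at all (0.0570) or under edgeR with 5 libraries (0.0769), with a range of 0.0177 to 0.385 over the alternatives. Unc5a was at 78.1, 82.9 and 65.5 in vehicle and 89.1, 105 and 87.2 under DAPT, also apart but not past the threshold (log2 change 0.31, SE 0.132, limma adjusted p = 0.108). Unc5b exceeded Unc5c in reads per kb by a ratio of 160.5 ± 25.9 in vehicle and 93.3 ± 7.92 under DAPT.

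**Figure D3:**
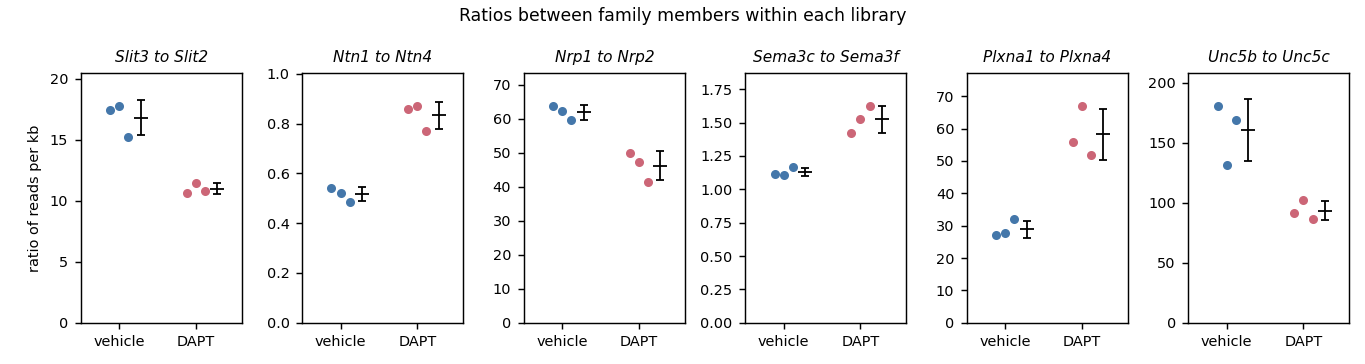
Ratio of reads per kb (y axes, from 0) between 2 members of a family in each of the 3 vehicle (blue) and 3 DAPT (red) libraries, with mean and SD as black bars. The 6 ratios plotted are among the 7 of 9 computed whose groups do not overlap, and the ratio of Plxna1 to Plxna4 moves from 28.9 to 58.2.

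These ratios were chosen after the values were seen and were given no test. Of 9 ratios computed, 7 separated the groups and 2 did not. Plxnb2 to Plxnb1, not plotted, also separated them, at 20.7 ± 0.944 in vehicle and 27.9 ± 1.78 under DAPT. The groups overlapped for Sema3f to Sema3a, at 5.34 ± 0.301 in vehicle and 4.94 ± 0.248 under DAPT, and for Efnb2 to Efnb1, at 2.62 ± 0.187 in vehicle and 2.41 ± 0.182 under DAPT. The calls of Ephb3, Sema3a, Sema6d and Unc5b were lost in DESeq2 on 5 libraries, at adjusted p values of 0.247, 0.0539, 0.104 and 0.0953, and so were those of Sema4c, Efna2, Ephb1, Ntn4, Robo3 and Unc5c. Of the 38 tested guidance genes that did not pass, 18 had a 95% interval within 0.25 of 0 on the log2 scale. In 7 of the 38 the groups did not overlap, against 33.3% of all tested genes, called or not. The share among all genes that did not pass was not computed. The 7 were Sema3d, Sema5a, Sema6b, Unc5a, Plxna2 (adjusted p = 0.168), Sema4g (0.0858) and Ephb6, a kinase-dead Eph receptor (0.446), all from limma. The log2 changes of the 38 ran from -0.92 (Sema4d) to 0.31 (Unc5a).

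Levels of different genes were compared as normalised reads per kb of the deposited gene length. These lengths were not checked against another annotation, and the order of the genes and the size of the ratios above rest on them. Plxnb2 was the highest, at 1206 ± 33.2 in vehicle and 1196 ± 8.94 under DAPT, followed by Nrp1 at 885 ± 26.8 in vehicle and 754 ± 13.4 under DAPT and Slit3 at 831 ± 95.2 in vehicle and 492 ± 2.98 under DAPT. Nrp1 and Slit3 lay within their spread of each other in vehicle and apart under DAPT. Plxna1 came next at 458 ± 21.5 in vehicle and 442 ± 3.02 under DAPT. Sema3c, Efnb2, Sema3e, Unc5b and Sema3f formed the next group, with means over all 6 libraries between 270.1 and 351 reads per kb. In vehicle Efnb2 stood above Sema3c in this group and under DAPT below it, and in vehicle Sema3e and Unc5b lay within their spread of each other. The receptors Robo1, at 9.11 ± 0.968 in vehicle and 9.27 ± 0.413 under DAPT, and Unc5c, at 2.09 ± 0.329 in vehicle and 3.15 ± 0.354 under DAPT, were near the low end of the tested genes, and Sema4d was lowest at 0.935 ± 0.3296 in vehicle and 0.511 ± 0.406 under DAPT. Below the filter, in reads recovered over all 6 libraries, lay Sema7a with 61, Sema6a with 35, Plxnb3 with 20 and Epha10 with 10. Sema5b had 4 reads, Epha5 and Unc5d had 3 each, Epha6 and Epha8 had 1 each, and Unc5cl had 0. For these totals the reads of DAPT replicate 3 rest on its estimated size factor, which the count tests did not use.

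**Figure D4:**
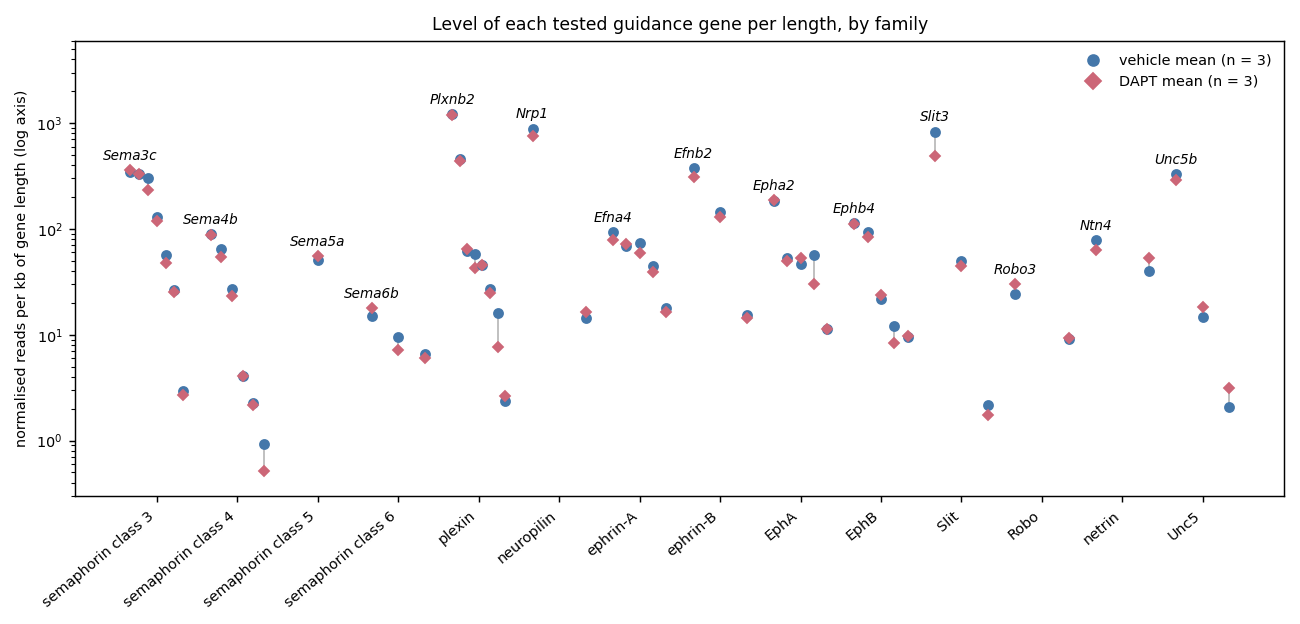
Normalised reads per kb of gene length (y axis, log scale) for each tested gene except Unc50, by family. Points are means of 3 vehicle (blue circles) and 3 DAPT (red diamonds) libraries, joined by a line, with the most abundant member of each family named. Plxnb2, Nrp1 and Slit3 are the highest, and of these Slit3 has the longest line between its group means.

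Partners and effectors outside the symbol rule gave calls in both directions. The list includes further netrins that the rule did not take. Of 74 listed symbols 73 had a row and 62 were tested, of which 11 rose and 13 fell. That is 38.7% called against 18.1% of all tested genes, with a median log2 change of -0.01. DESeq2 on 5 libraries called 8 of them higher and 5 lower, against 982 calls over all 14906 genes. Among netrin and repulsive guidance partners 3 of 9 tested fell and 0 rose. Rgma, a membrane ligand of neogenin, was at 954, 928 and 823 in vehicle and 598, 579.8 and 647 under DAPT (log2 change -0.57, SE 0.0562, limma adjusted p = 4.95e-08), and Flrt1, of a family that binds Unc5 receptors, was at 71.5, 82.9 and 59.3 in vehicle and 51.2, 39.98 and 45.6 under DAPT (log2 change -0.63, SE 0.161, limma adjusted p = 0.00717). In both genes all DAPT libraries were lower, and the Flrt1 call did not hold on removal of vehicle replicate 2 (0.0599), with a range of 0.00285 to 0.159 over the alternatives. Dcc, the main netrin receptor of neurons, had no read in any library, and neogenin (Neo1) had group means of 2507 and 2354 (adjusted p = 0.131).

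Among semaphorin and plexin partners 5 of 24 tested rose and 4 fell. Mical2, of the MICAL family of actin-oxidising enzymes that act downstream of plexins, was at 2808, 2801 and 2743 in vehicle and 1909.5, 1827 and 2019.6 under DAPT, with no overlap (log2 change -0.54, SE 0.0386, limma adjusted p = 2.16e-10). The plexin domain proteins Plxdc1, at 139, 148 and 143 in vehicle and 184, 222 and 193 under DAPT (log2 change 0.47, SE 0.0929, limma adjusted p = 0.000691), and Plxdc2, at 980.1, 1016 and 1094 in vehicle and 1281, 1369 and 1364 under DAPT (log2 change 0.38, SE 0.0458, limma adjusted p = 1.18e-06), rose, as did Rnd2, of a GTPase family that binds plexins, at 514, 561 and 584 in vehicle and 727, 732 and 743 under DAPT (log2 change 0.41, SE 0.0529, limma adjusted p = 3.08e-06). All DAPT libraries of these genes exceeded the vehicle libraries. Plxdc1 and Plxdc2 were counted on this list, and whether they act with semaphorins or plexins was not tested. Of 14 tested Slit and Robo effectors 4 rose and 1 fell, and of 15 tested Eph effectors 2 rose and 5 fell.

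Promoter windows of the RefSeq annotation on GRCm38.p6, covering 250 bases before the gene start, were read for 49 of the tested guidance genes (63 windows). The submitters' processing notes name another build, mm9, so these coordinates are those of RefSeq alone. TGGGAA, the core letters bound by the Notch partner RBPJ, was found on either strand in 10 of the 63 windows, or 15.9%, against 21.6% of 32851 windows of all genes. CACGTG, an E-box that Hey repressors can bind, was in 2 windows, against 6.02% of all. The 2 motifs did not overlap each other. Of 15 windows of 13 genes called lower, 1 held TGGGAA and 1 CACGTG, in both cases a window of Sema6d, and neither was in the 2 windows of genes called higher. A match of letters is a description and not a binding site. The windows of Epha1, Efnb2 and Sema6d are printed 5′ to 3′ on the gene's strand, with the motifs in capitals. Epha1 and Efnb2 were among the 8 called genes that passed in every alternative tried. The Epha1 window is chr6:42373269-42373518 on the minus strand, that of Efnb2 is chr8:8661243-8661492 on the minus strand, and that of Sema6d is chr2:124089719-124089968 on the plus strand.
Epha1: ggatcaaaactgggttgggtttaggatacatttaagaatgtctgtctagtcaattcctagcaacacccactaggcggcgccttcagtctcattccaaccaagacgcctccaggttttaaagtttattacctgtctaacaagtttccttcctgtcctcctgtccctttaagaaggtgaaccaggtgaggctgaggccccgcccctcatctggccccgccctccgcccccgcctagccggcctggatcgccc
Efnb2: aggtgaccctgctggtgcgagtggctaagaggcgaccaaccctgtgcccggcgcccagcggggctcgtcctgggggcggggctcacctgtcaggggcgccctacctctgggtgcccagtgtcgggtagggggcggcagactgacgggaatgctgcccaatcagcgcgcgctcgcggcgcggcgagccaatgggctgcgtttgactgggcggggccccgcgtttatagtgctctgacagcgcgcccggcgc
Sema6d: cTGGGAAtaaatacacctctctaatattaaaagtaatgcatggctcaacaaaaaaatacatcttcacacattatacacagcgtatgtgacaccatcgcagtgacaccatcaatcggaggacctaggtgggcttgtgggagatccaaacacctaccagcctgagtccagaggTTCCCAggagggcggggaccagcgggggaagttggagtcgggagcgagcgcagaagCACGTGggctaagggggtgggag
In the Sema6d window the TGGGAA match on the gene's strand begins 249 bases before the gene start, the one on the other strand 79 bases before it and the CACGTG 23 bases before it. The windows of Epha1 and Efnb2 held neither, with G and C making up 54.4% of the letters of the first and 72.0% of the second.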

How the data were processed

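The authors deposited 1 table with a row per Ensembl gene. Per the file headers and the values, its signal for each library is a normalised read count, that is whole reads over a size factor of that library, and 100% of values were whole multiples of 1 read within 0.01 reads. Columns headed C and I with a number were read as control and inhibitor. The authors also deposited an RPKM per group, a log2 ratio, a p-value and an adjusted p-value, made by a test that no source used here names; of these, the text quotes the adjusted p and its direction. TopHat2 2.0.4, HTSeq 0.5.4p3, DESeq 1.16.0 and mm9 are named in the submitters' processing notes, without roles.

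Here limma 3.58.1 (R 4.3.3, intensity trend, no covariate) was fitted to log2(normalised count + 1) of all genes with at least 10 in at least 3 libraries, two-sided. A fold change is on that scale, which understates changes of low genes. Alternatives were other pseudocounts (0.5, 5), filters (none, 50), scalings (TMM, quantile), the replicate number as a block, robust empirical Bayes, leaving out each library, and edgeR 4.0.16 and DESeq2 1.42.0 on recovered reads. The count tests used 5 libraries, because the size factor of DAPT replicate 3 (1.01) is too near 1 for its reads to be accepted as recovered; its total and the read sums of low genes still use it. No 2 libraries of a group agreed within sampling noise (chi-square per degree of freedom 1.42 to 3.04). The procedure was tested on simulated data.

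Named genes were each called member, the 2 members per family with most reads per kb, and the 3 called partners or effectors with the largest rise and fall, with members below the filter named by their summed reads. Sema3d, Sema4d, Sema4g, Plxna2, Ephb6, Slit1, Neo1, Dcc and Zyx were named outside this rule, after their values were seen, as were the promoter windows. Members and lists were chosen with earlier results of these data known. Symbols were matched to RefSeq promoters by name.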

Additional observations from a re-analysis of the deposited data

How the results depend on the processing

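The 18 called guidance genes kept their direction in each of the 287 pairs of gene and alternative setting that gave a value, over 16 settings, and 8 of the 18 (Slit3, Plxna4, Epha1, Plxnb1, Sema3f, Efnb2, Nrp1 and Ntn1) passed in every one. With 1 library left out, the guidance genes called higher numbered 1 to 3, against 3, those called lower 12 to 15, against 15, and all called 14 to 18, against 18. DESeq2 on 5 libraries called 1 higher and 7 lower, 8 in all, and 5 partners and effectors lower, against 13, with 13 called in all, against 24. Without DAPT replicate 3, the library that DESeq2 lacks, limma called 16 guidance genes in all. The cause of the lower counts in DESeq2 was not tested. edgeR on the same 5 libraries called 2 higher and 14 lower, and 1945 of all genes, against 982 in DESeq2 and 2703 in limma. Under each setting the median log2 change of all genes was within 0.0073 of 0.

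No pairing by replicate number was seen in the values. Deviations from the group means correlated at 0.0267, -0.0175 and 0.0099 for the same numbers, and not every library correlated best with its own number. Whether libraries of the same number shared a culture or a day cannot be told from these correlations. With the number as a replicate block the guidance genes called were 3 higher and 16 lower, Slit2 being the addition (adjusted p = 0.0292), and the partners and effectors called were 12 higher and 13 lower. The planned fit on RPKM per library was not run, since the table gives 1 RPKM per group. The 13 guidance genes below the filter were not tested at this depth, and Sema4d, near the filter, had a log2 change of -0.92 with an SE of 0.456 (limma adjusted p = 0.175).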
